A study of Rattus norvegicus with 48 samples.

Results

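The 9 miRBase names described here stand for miRNAs that are best known from blood vessels and connective tissue: miR-126a-3p, miR-126a-5p, miR-143-3p, miR-145-5p, miR-145-3p, miR-199a-3p, miR-199a-5p, miR-214-3p and the precursor mir-214. They were taken by name from a table of small RNA-seq values, with the species prefix ignored, and made up 9 of its 1063 names, of which 612 were mature miRNAs and 451 were precursors. Of the members, 8 are mature and 1 is a precursor. The study asked how prenatal ethanol and later social enrichment alter miRNAs in the amygdala and the ventral striatum of Long Evans rats. Dams received intraperitoneal injections of ethanol or saline in mid-gestation, and their offspring were weaned and then housed with littermates (non-enriched) or with unfamiliar rats of the same age and sex born to untreated dams (socially-enriched). Brains were taken at postnatal day 42, after a social interaction test and under ketamine and xylazine, conditions that all groups shared. Each region gave 24 libraries, 6 for each of 4 treatments (saline non-enriched, saline socially-enriched, ethanol non-enriched and ethanol socially-enriched), with 3 female and 3 male libraries in each. A library is a pool of RNA from several rats, so a value is an average over animals and the spread between libraries understates that between rats.

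miR-126 is made from an intron of Egfl7 and is the best-known miRNA of endothelial cells, the cells that line vessels. miR-143 and miR-145 come from neighbouring hairpins and are abundant in vascular smooth muscle and pericytes. miR-199a and miR-214 come from hairpins on the strand opposite to a Dnm3 intron and are abundant in mesenchymal cells such as fibroblasts. A hairpin can give a mature miRNA from each of its arms, named 5p and 3p, and bases 2 to 8 of the mature miRNA, the seed, direct it to its targets.

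All 9 names were matched to RefSeq entries for the rat (build GRCr8). Both arms of miR-126a were matched by mature name and stand in RefSeq under the gene symbol Mir126b, for which it gives Mir126a as a synonym. The mature sequences are shown because they define what was counted, with the seed in capitals.
miR-126a-5p: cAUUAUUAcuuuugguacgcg
miR-126a-3p: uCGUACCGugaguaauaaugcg
miR-143-3p: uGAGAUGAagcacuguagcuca
miR-145-5p: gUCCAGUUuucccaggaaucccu
miR-145-3p: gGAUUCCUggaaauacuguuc
miR-199a-5p: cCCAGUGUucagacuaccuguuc
miR-199a-3p: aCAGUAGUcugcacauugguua
miR-214-3p: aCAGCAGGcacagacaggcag

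No member shares its seed with another member or with any other of the 693 mature rat names in RefSeq, so the 8 mature members carry 8 different seeds. The miR-126a arms lie at chr3:29813182-29813202 (5p) and chr3:29813219-29813240 (3p) on the plus strand, with 16 bases between them. miR-143-3p (chr18:57371373-57371394) and miR-145-5p (chr18:57370033-57370055) lie on the minus strand, with 1317 bases between them. miR-199a-3p (chr13:77116294-77116315) and miR-214-3p (chr13:77121713-77121733) lie on the plus strand, with 5397 bases between them. The precursor row of mir-214 refers to the hairpin below, in which miR-214-3p is in capitals.
mir-214: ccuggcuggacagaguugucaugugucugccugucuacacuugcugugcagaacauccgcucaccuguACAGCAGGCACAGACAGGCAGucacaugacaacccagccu

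Values are reads per 1000000 reads (RPM), scaled so that the mature names of a library sum to 1000000 and the precursor names separately to 1000000, and precursor RPM are therefore on a scale of their own. The libraries held 363141 to 1287700 mature reads in the amygdala and 739464 to 1370410 in the ventral striatum, as recovered from the steps between low values. A count of 0 in a library still allows up to 3 reads, which is 2.33 to 8.26 RPM in the amygdala and 2.19 to 4.06 RPM in the ventral striatum for a mature name, and this limit covers counting error only. One ventral striatum library, saline socially-enriched female replicate 3, was picked out because it held the most miR-143-3p. It was the highest of its region in 6 of the 9 members, miR-143-3p among them. It is called the library that stood apart and is described where it bears on a result. Because the tissue was taken whole, fewer cells of a type and less RNA per cell cannot be told apart. Neuronal miRNAs, a fixed list of 4 names, summed to 5759 to 13694 RPM over the ventral striatum libraries and to 6107 to 12440 RPM over those of the amygdala, so miRNAs of neurons were present in every library, though at a lower summed level than miR-143-3p alone.

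The members ran from one of the most abundant miRNAs of the tissue to one that was barely read. miR-143-3p, the smooth muscle and pericyte miRNA, was by far the highest. It ranged from 23922 to 35920 RPM in the amygdala, with a median of 30259 RPM, and from 23136 to 63564 RPM in the ventral striatum, with a median of 29568 RPM. It ranked 7 of 612 mature names by its mean over the 48 libraries and took on average 3.03% of mature reads in amygdala libraries and 3.06% in the others.

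The endothelial miR-126a came next, and its 5p arm was the abundant one. miR-126a-5p ranged from 1691 to 4333 RPM in the amygdala (median 2601 RPM) and from 1789 to 4331 RPM in the ventral striatum (median 3332 RPM), and ranked 45 of 612. miR-126a-3p ranged from 294 to 489 RPM in the amygdala (median 412 RPM) and from 331 to 522 RPM in the ventral striatum (median 420 RPM), and ranked 117. The levels of miR-143-3p, miR-126a-5p and miR-126a-3p did not overlap with each other in any of the 48 libraries.

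miR-145-5p, the neighbour of miR-143, was far below it. It ranged from 53.5 to 132 RPM in the amygdala (median 83.02 RPM) and from 64.3 to 174 RPM in the ventral striatum (median 92.6 RPM). Its other arm, miR-145-3p, had no read in 27 of 48 libraries and at most 5 reads in any.

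miR-199a-3p, of mesenchymal cells, ranged from 25.4 to 81.9 RPM in the amygdala (median 39.4 RPM) and from 21.1 to 130 RPM in the ventral striatum (median 39.7 RPM). It was below miR-145-5p in all 48 libraries, although the ranges of the pair overlapped across libraries. miR-199a-5p, its other arm, ranged from 0 to 14.7 RPM in the amygdala (median 5.31 RPM) and from 0 to 32.4 RPM in the ventral striatum (median 2.69 RPM), and was above 3 reads in 19 of 48 libraries.

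miR-214-3p was close to the limit of detection in both regions. It had 9 reads in all over the 48 libraries, spread over 8 of them, and at most 2 in any. The precursor mir-214 ranged from 0 to 4.47 precursor RPM in the amygdala (median 1.60 RPM) and from 0 to 6.85 precursor RPM in the ventral striatum (median 1.06 RPM) and was above 0 in 39 of 48 libraries. Although miR-214 is encoded next to a miR-199a hairpin, the count of its 3p arm was far below that of miR-199a-3p, and the lowest miR-199a-3p count was 11 reads. At this depth miR-214-3p and miR-145-3p could be compared between groups only in the coarsest sense: in 11 of 48 libraries miR-199a-5p did not exceed miR-145-3p, and in 23 of 48 miR-145-3p and miR-214-3p were equal.

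**Figure D1:**
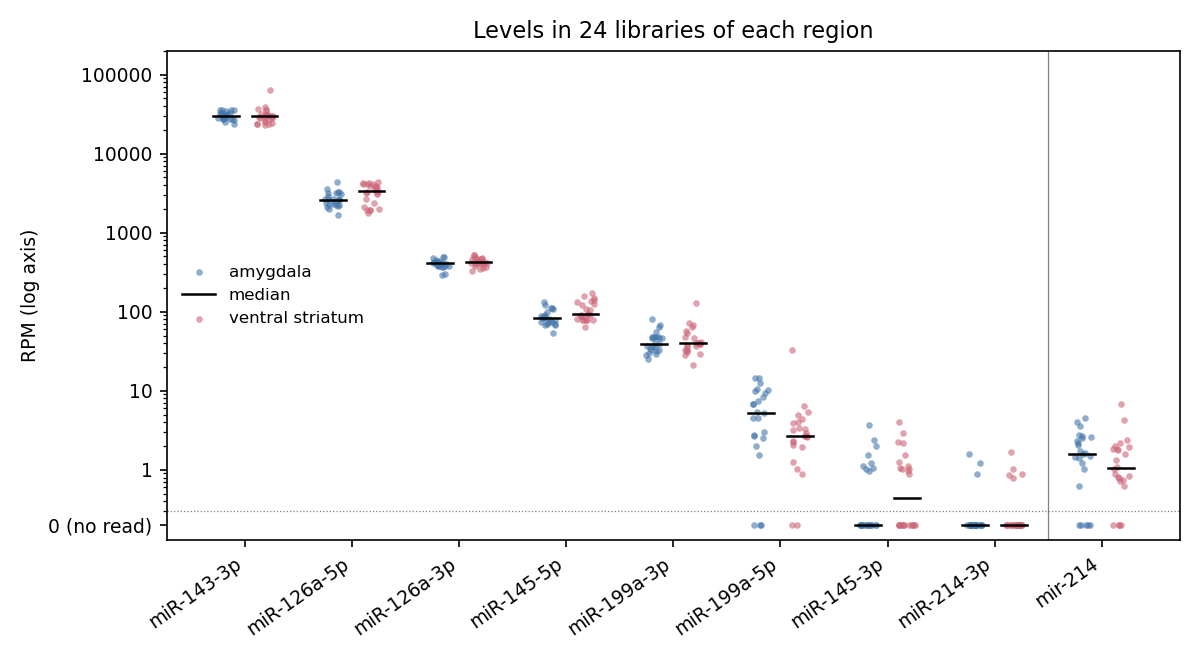
Level of each member in the 24 libraries of each region, in RPM on a log axis; each point is a library, black lines are medians and points under the dotted line had no read. The mature members run from miR-143-3p, at least 23136 RPM in every library, to miR-214-3p, which had no read in 40 of 48; the precursor mir-214, right of the grey line, is on the separate precursor scale.

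The members also differed in how steady they were. On the log2(RPM + 1) scale the SD between libraries of the same region, treatment and sex of miR-126a-3p was 0.17 in amygdala libraries and 0.19 in those of the ventral striatum, against medians of 0.33 and 0.30 over the mature names with a mean of at least 10 RPM. Only 6.98% of 301 such names in the amygdala and 14.1% of 312 in the ventral striatum had a smaller SD. miR-143-3p was likewise steady in the amygdala, with an SD of 0.18, and near the middle of the names in the ventral striatum, with 0.30. miR-126a-5p had an SD of 0.34 and 0.51 in the same order, and miR-199a-3p had 0.37 and 0.56, the latter a value that 86.5% of names in the ventral striatum did not reach. The ventral striatum SDs of miR-143-3p and miR-199a-3p include the library that stood apart. It held 63564 and 130 RPM of them, against at most 38710 and 71.6 RPM in the other 23. Counting error differs too, with a median of 391 reads a library for miR-126a-3p and 38 for miR-199a-3p. The ventral striatum SD of miR-126a-5p spans a gap between 8 lower and 16 higher libraries, described below, and the part of that gap in the SD was not tested. The arms of miR-126a thus came from 1 hairpin but varied to different degrees.

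Other names of the same hairpins were looked up in a list of 10, of which 5 were in the table. The precursors mir-126a (2815 ± 544 RPM in the amygdala and 3264 ± 817 RPM in the ventral striatum, mean ± SD, n = 24), mir-143 (26388 ± 3048 and 26427 ± 7243 RPM), mir-145 (126 ± 22.4 and 137 ± 34.3 RPM) and mir-199a (48.2 ± 16.9 and 47.9 ± 25.7 RPM) followed the order of their mature forms. They were quantified from the same libraries and are no separate evidence: over the 48 libraries mir-126a and miR-126a-5p had a Pearson r of 0.999 on the log2 scale, mir-143 and miR-143-3p one of 0.998, and mir-145 and miR-145-5p one of 0.834. miR-143-5p, the other arm of miR-143, was above 0 in a single ventral striatum library, at 1.13 RPM. None of the 4 names that could be tested passed an adjusted p of 0.05 in any comparison below.

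The ratio of the arms of miR-126a was above 4 in every library. miR-126a-5p exceeded miR-126a-3p by 5.03 to 9.12 times in the amygdala (median 6.33) and by 4.70 to 10.4 times in the ventral striatum (median 7.86). In the ventral striatum miR-126a-5p fell on both sides of a gap: 8 libraries held 1789 to 2685 RPM and the other 16 held 3129 to 4331 RPM. The 8 lower libraries came 1 each from the 8 groups of treatment and sex, so the gap did not follow a treatment. Libraries were multiplexed for sequencing in 6 sets, each of 8 libraries, as many as lay below the gap. The set of each library is not given in the sources used here, so its part in this was not tested.

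The arms of miR-126a rose and fell together. Correlations were computed for all 36 pairs of members in each region, 72 in all, on deviations of log2(RPM + 1) from the mean of the same treatment and sex, with p-values from 100000 permutations within those groups (two-sided) and Benjamini-Hochberg adjustment over the 72. For miR-126a-3p and miR-126a-5p Pearson's r was 0.78 in amygdala libraries (Spearman's rho 0.78, n = 24 libraries, permutation p = 0.0009, adjusted p = 0.0216) and 0.79 in the ventral striatum (rho 0.78, permutation p = 0.0003, adjusted p = 0.0108). Without the 2 libraries farthest from the median of miR-126a-3p, r was 0.76 and 0.78. Some names of other hairpins had a higher r with miR-126a-5p in each region, as given below. Within the 16 ventral striatum libraries above the gap r was 0.66 (rho 0.56, permutation p = 0.00632), and within the 8 below it r was 0.56 (rho 0.60, exact permutation p = 0.154), on log2 RPM without the deviations.

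The arms of miR-199a passed the adjusted threshold in the ventral striatum only, and there not without 1 library. In the ventral striatum r was 0.71 (rho 0.77, permutation p = 0.00134, adjusted p = 0.0241), and it was 0.54 (adjusted p = 0.0560) without the library that stood apart. In the amygdala r was 0.74 (rho 0.57) with an adjusted permutation p of 0.176, and 0.46 without the 2 libraries farthest from the median of miR-199a-3p. miR-199a-5p rested on a median of 3 reads a library, so counting error is a large part of its spread.

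The neighbours miR-143-3p and miR-145-5p, which can be cut from 1 transcript, did not pass the adjusted threshold in either region. Their r was 0.47 in amygdala libraries (rho 0.46, adjusted permutation p = 0.273) and 0.53 in the ventral striatum (rho 0.49, adjusted permutation p = 0.103). miR-143-3p and miR-199a-3p had an r of 0.69 in the ventral striatum (rho 0.60, adjusted permutation p = 0.0988), which was 0.46 without the library that stood apart, and −0.13 in the amygdala (rho −0.08). One pair from different hairpins passed by Pearson's r: miR-126a-5p and miR-199a-5p in the ventral striatum, with r = 0.61 (rho 0.71, adjusted permutation p = 0.0108). miR-126a-5p and miR-199a-3p passed there by Spearman's rho alone (rho 0.65, adjusted permutation p = 0.0347, against r = 0.42 with 0.384). Below the gap in miR-126a-5p, the r of miR-126a-5p and miR-199a-5p was −0.04 (rho −0.51, n = 8, exact permutation p = 0.928 for r). Above the gap it was 0.29 (rho 0.49, n = 16, permutation p = 0.299 for r). For miR-126a-5p and miR-199a-3p, r was −0.07 below the gap (rho −0.29, exact permutation p = 0.849 for r). Above the gap it was 0.45 (rho 0.49, permutation p = 0.0738 for r). The split was made on miR-126a-5p itself, which narrows its range, so these values do not test either relation.

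**Figure D2:**
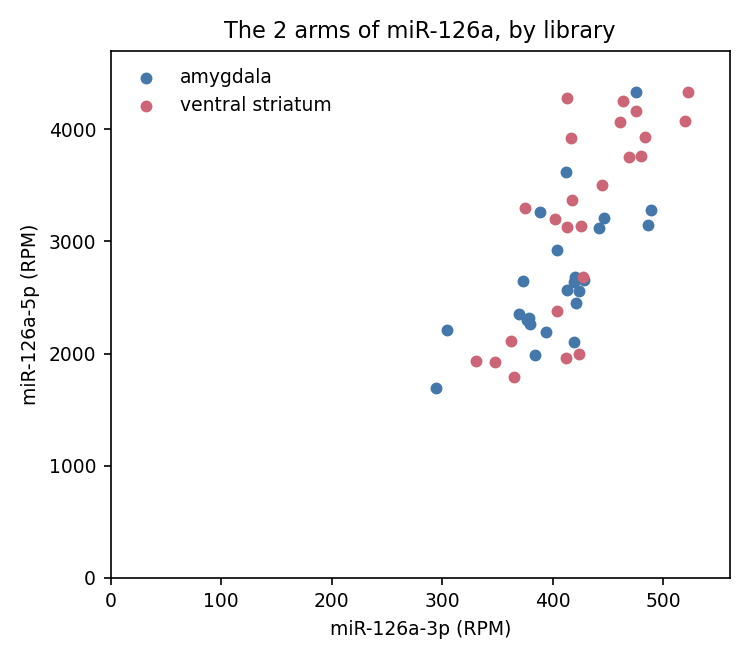
miR-126a-5p against miR-126a-3p in RPM, 1 point for each of the 24 amygdala and 24 ventral striatum libraries, both axes from 0. The arms rise together in both regions, and no ventral striatum library lies between 2685 and 3129 RPM of miR-126a-5p.

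Among 296 other mature names of the amygdala with a mean of at least 10 RPM, those most like miR-126a-5p over the 24 libraries were miR-22-3p (r = 0.89, rho 0.91) and miR-340-5p (r = 0.87, rho 0.86). In the ventral striatum they were miR-411-5p (r = 0.93, rho 0.64) and miR-3068-3p (r = 0.91, rho 0.74). The part of the gap in miR-126a-5p in these 2 values of r was not tested. In both regions these names had a higher r with miR-126a-5p than its own other arm had (0.78 and 0.79). An r of that size was therefore not particular to the shared hairpin. By rho the arms (0.78) were above the ventral striatum names but below the amygdala ones. For miR-143-3p the most alike names were let-7i-5p (0.74) and let-7e-3p (0.53) in the amygdala and miR-31a-5p (0.70) and miR-592 (0.61) in the ventral striatum. For miR-145-5p they were miR-338-3p (0.60) and miR-148b-3p (0.54), and miR-107-3p (0.70) and miR-30c-5p (0.60). For miR-199a-3p they were miR-93-5p (0.67) and miR-219b (0.66), and miR-450a-5p (0.81) and miR-142-5p (0.73). No name was among the nearest pair of a member in both regions, which depends on the cut at 2 names. For miR-126a-5p, miR-411-5p was first in the ventral striatum and ranked 5 in the amygdala (r = 0.80). These r are descriptions on the same deviations and have no test, since the values share a library and its depth. miR-214-3p had too few reads for such a comparison.

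The library that stood apart was the highest of its region in 6 members, miR-143-3p, miR-145-5p, both arms of miR-199a, miR-214-3p and mir-214, and not in the endothelial ones or in miR-145-3p, which had no read there. It was picked out by miR-143-3p, so its first place in that member was fixed by the choice. In saline socially-enriched female replicate 3 of the ventral striatum miR-143-3p was 63564 RPM, against 23136 to 38710 RPM in the other 23 libraries of the region. miR-145-5p was 174 RPM there, against 64.3 to 158 RPM. miR-199a-3p was 130 RPM, against 21.1 to 71.6 RPM.

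Its mesenchymal members of low count followed. miR-199a-5p was 32.4 RPM, 12.1 times the median of the other libraries and above their highest value of 6.52 RPM. mir-214 was 6.85 precursor RPM against a highest value of 4.25 RPM elsewhere, and miR-214-3p, with 2 reads, was 1.66 RPM against at most 1.03 RPM. By contrast, miR-126a-3p (416 RPM, 14th of 24 libraries) and miR-126a-5p (3924 RPM, eighth of 24) were within the range of the others. Of the 312 mature names with a mean of at least 10 RPM in the region, 43 (13.8%) were highest in this library. By its ratio to the median of the other 23 libraries miR-199a-3p (3.32) was the fourth and miR-143-3p (2.17) the 12th of these names. The first were miR-141-3p (8.30), miR-200a-3p (7.15) and miR-375-3p (4.09), which are best known from epithelial and endocrine cells, were picked out after their values were seen and were each higher in another library of the region. The summed levels of fixed marker lists there were 51.5 RPM for 3 red blood cell names (second of 24 libraries), 17.4 RPM for 4 skeletal muscle names (second), 632 RPM for 4 microglial and immune names (seventh), 11750 RPM for 3 oligodendrocyte names (eighth), 5463 RPM for 5 choroid plexus names (19th) and 6503 RPM for 4 neuronal names (21st). What part other cells in the dissected tissue had in this was not tested.

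**Figure D3:**
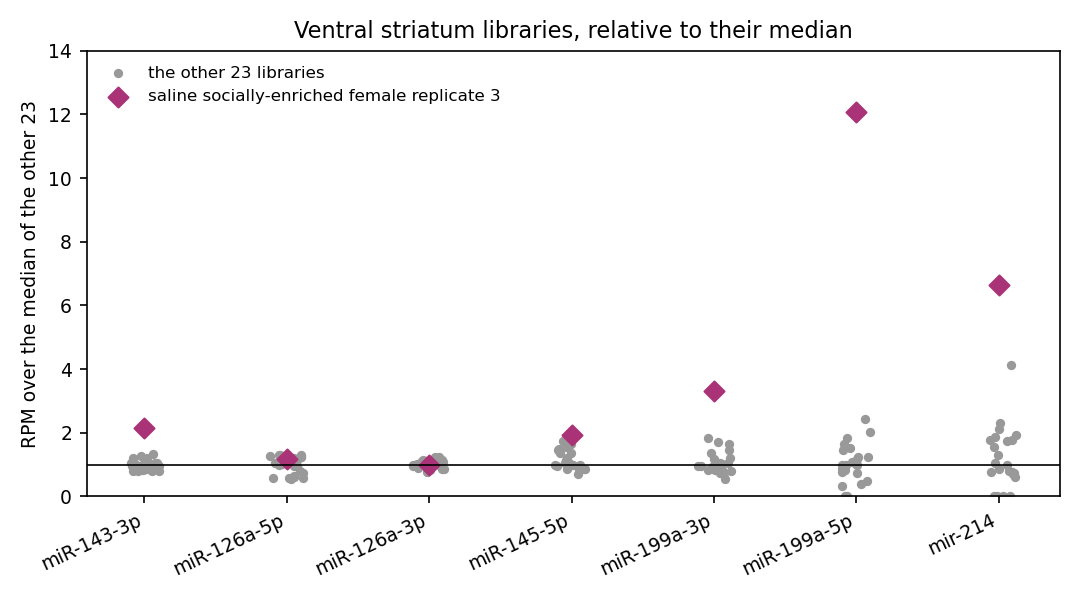
RPM of 7 members in each ventral striatum library divided by the median of the 23 libraries other than saline socially-enriched female replicate 3, on a linear axis from 0; grey points are those 23 libraries and diamonds are the library that stood apart. The diamond lies above all grey points for miR-143-3p, miR-145-5p, miR-199a-3p, miR-199a-5p and mir-214, and among them for both arms of miR-126a; miR-145-3p and miR-214-3p, with few reads, are left out.

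The first comparison asked whether the members differed between the ventral striatum and the amygdala. None did at an adjusted p of 0.05 in limma on log2(RPM + 1), fitted to all 968 names above 0 in at least 6 libraries: 0 of 9 members were called (1 of 9 at an unadjusted p of 0.05, beside 39% of all names), whereas 28.5% of all names tested were, 20.4% higher and 8.16% lower in the ventral striatum. The median difference of the members was 0.07 on the log2 scale, beside 0.08 over all names.

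The closest to a difference was miR-145-5p, higher in the ventral striatum (105 ± 29.8 RPM against 86.6 ± 19.1 RPM, mean ± SD, n = 24 each). Its log2 difference was 0.26 ± 0.10 (SE, limma p = 0.0143, adjusted p = 0.0501), and a permutation of region labels within treatment and sex gave p = 0.0149 (two-sided, 100000 permutations). Both regions were dissected from the same rats, and the labels do not state which amygdala pool shares its rats with which ventral striatum pool. However, each ventral striatum library is followed in number by an amygdala library of the same sex and treatment, so consecutive numbers may mark such pairs. The deviations of these 24 pairs from their group means had a median correlation of 0.05. Both tests above treat the regions' libraries as independent although they share animals. With consecutively numbered libraries as a random block in limma the adjusted p of miR-145-5p was 0.0419, under the threshold. In all, 4 of 12 other settings and 15 of 48 fits that left out 1 library brought the adjusted p under 0.05, with a range of 0.0172 to 0.352 over the settings. The ranges of the regions overlapped widely.

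The endothelial miR-126a-5p was 3206 ± 888 RPM in the ventral striatum and 2688 ± 588 RPM in the amygdala, a log2 difference of 0.23 ± 0.12 (limma adjusted p = 0.178, permutation p = 0.0319). miR-126a-3p was 427 ± 50.6 and 406 ± 47.2 RPM, a log2 difference of 0.07 ± 0.05 (limma adjusted p = 0.294), with a 95% interval that reached no further than −0.03 and 0.18. miR-143-3p was 30634 ± 8239 and 30334 ± 3516 RPM, a log2 difference of −0.01 ± 0.07. The 95% interval of miR-143-3p ran from −0.16 to 0.13, so a difference as large as that of many of the names called was outside it.

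Of the mesenchymal members, miR-199a-3p was 45.8 ± 22.04 RPM in the ventral striatum and 42.99 ± 13.6 RPM in the amygdala, a log2 difference of 0.04 ± 0.14. miR-199a-5p was 4.03 ± 6.25 and 6.05 ± 4.45 RPM, a log2 difference of −0.53 ± 0.29 (n = 24 each, limma p = 0.0797, adjusted p = 0.181). Without the library that stood apart, the latter was −0.66 (n = 23 and n = 24, limma p = 0.0220, adjusted p = 0.0690). miR-145-3p (0.17), miR-214-3p (0.07) and mir-214 (−0.15) rested on a few reads each. Beside these values, 3 of 3 oligodendrocyte names were higher and 2 of 5 choroid plexus names were lower in the ventral striatum at an adjusted p of 0.05, and summed choroid plexus names reached 131318 RPM in 1 amygdala library; their part in the members' values was not tested.

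**Figure D4:**
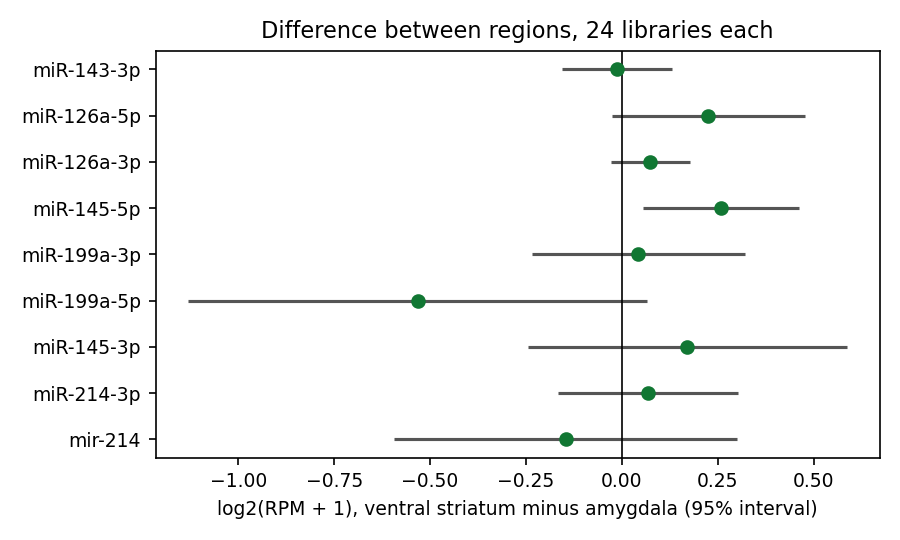
Difference of each member between regions on the log2(RPM + 1) scale, ventral striatum minus amygdala, as estimated by limma over 24 libraries of each region; bars are 95% intervals. The interval of miR-145-5p alone lies to one side of 0, and its adjusted p over all names was 0.0501.

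The second set of comparisons asked for effects of prenatal ethanol and of social enrichment in each region. No member passed an adjusted p of 0.05 in any of the 8 contrasts, and neither did any of the 910 names tested in the amygdala or the 933 in the ventral striatum (0% called in each). In each region 8 of the 9 members were above 0 in enough libraries to be tested; miR-214-3p was not. Over the 9 members and 8 contrasts, 72 comparisons of 6 libraries with 6, no pair of groups was without overlap, and 2 had an exact permutation p under 0.05 before any adjustment. Over the names above 0 in at least 6 libraries of a region, 0.0814% of such comparisons were without overlap and 2.73% had an exact p under 0.05, beside 0 and 2 of the 64 comparisons of members among them. At an unadjusted limma p of 0.05, 1 of 8 members was called in enrichment of saline rats in the ventral striatum, where 3.86% of all names were, and 1 of 8 in enrichment of ethanol rats in the amygdala, where 2.64% were. Both also stand in the study's own lists for those contrasts, which were chosen on these samples and are not independent evidence. The other 6 contrasts had none, where 4.51%, 3.85% and 2.64% of names in the amygdala and 2.04%, 2.25% and 1.82% in the ventral striatum were under that p, and neither had the interaction in the amygdala (3.85%).

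The first was miR-145-5p, which was higher in socially-enriched than in non-enriched saline rats in the ventral striatum. Its 6 non-enriched libraries ran from 64.3 to 104 RPM (median 84.8 RPM) and its 6 enriched libraries from 78.8 to 174 RPM (median 129 RPM). Of the 6 enriched libraries 4 were above every non-enriched library, and the groups overlapped. The means were 126 ± 35.2 and 84.4 ± 13.4 RPM (SD, n = 6, exact permutation p = 0.0238). The log2 difference was 0.54 ± 0.20 (SE, 95% interval 0.11 to 0.96, limma adjusted p = 1), and without the library that stood apart it was 0.48 ± 0.21.

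The same step was not seen in ethanol rats, and the difference between the steps was itself tested. There, miR-145-5p ran from 87.9 to 158 RPM (median 92.4 RPM) without enrichment and from 78.7 to 141 RPM (median 94.3 RPM) with it, a log2 difference of −0.06 ± 0.20. Without enrichment, ethanol rats had a mean of 107 ± 28.5 RPM against 84.4 ± 13.4 RPM in saline rats (SD, n = 6, exact permutation p = 0.108). That log2 difference was 0.32 ± 0.20, so the groups already differed in level before the step. The enrichment step in ethanol rats was smaller than that in saline rats by a log2 value of −0.60 ± 0.28 (95% interval −1.20 to −0.0032, limma adjusted p = 1). The unadjusted p of this difference was just under 0.05, as was that of 2.57% of all names, and it was over 0.05 in 15 of 24 fits that left out a library, among them that without the library that stood apart (−0.54). In the amygdala the enrichment step of miR-145-5p in saline rats was 0.03 ± 0.20, and the regions' steps differed by 0.51 ± 0.28 (95% interval −0.069 to 1.08; 2.58% of all names had an unadjusted limma p under 0.05, and no member). The precursor mir-145 was higher by 0.45 ± 0.19 in the same contrast (limma adjusted p = 1), from the same libraries.

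All 8 members tested were higher in enriched saline rats in the ventral striatum, with a median log2 difference of 0.27 beside 0.01 over all names. It was the most one-sided of the 8 contrasts. The ethanol contrast in non-enriched rats of that region uses the same saline non-enriched libraries. There 7 of 8 members were higher, with a median of 0.09 beside 0.01. The shift with enrichment in saline rats rested in part on 1 library. Without that library 7 of 8 were higher, with a median of 0.22. miR-143-3p went from 0.30 to 0.13, miR-199a-5p from 0.77 to 0.26 and miR-199a-3p from 0.25 to −0.03. For miR-143-3p, the 6 enriched libraries ran from 23136 to 63564 RPM (median 31794 RPM) and the 6 non-enriched ones from 23761 to 30565 RPM (median 27308 RPM). The members are not independent of each other, so the count carries no test. Summed levels of red blood cell names in the same groups were 14.8 to 51.5 RPM with enrichment and 21.4 to 40.1 RPM without it, those of skeletal muscle names 3.28 to 17.4 and 0 to 8.94 RPM, and those of microglial and immune names 526 to 651 and 445 to 667 RPM.

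The second was miR-199a-3p, which was lower in socially-enriched than in non-enriched ethanol rats in the amygdala. Its 6 non-enriched libraries ran from 28.2 to 81.9 RPM (median 48.4 RPM) and its 6 enriched libraries from 25.4 to 46.2 RPM (median 31.4 RPM). The groups overlapped, with the lowest library among the enriched ones and the highest among the non-enriched ones. The means were 33.9 ± 7.79 RPM with enrichment and 51.3 ± 19.4 RPM without it (SD, n = 6, exact permutation p = 0.0628). The log2 difference was −0.53 ± 0.22 (SE, 95% interval −0.98 to −0.074, limma adjusted p = 1).

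This difference moved with the libraries used. Leaving out 1 library at a time gave −0.75, without ethanol non-enriched female replicate 3, to −0.37, without ethanol non-enriched female replicate 1. The unadjusted limma p was under 0.05 in 6 of these 12 fits, and over it in a fit to the 12 libraries compared alone. Its other arm, miR-199a-5p, had a log2 difference of 0.09 ± 0.58 in the same contrast. In saline rats the enrichment step of miR-199a-3p in the amygdala was −0.14 ± 0.22, and the steps differed by −0.39 ± 0.30 (95% interval −1.03 to 0.26).

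In the ventral striatum the step of miR-199a-3p in ethanol rats was 0.27 ± 0.32, from 29.4 to 53.1 RPM without enrichment and from 32.9 to 71.6 RPM with it. The regions' steps differed by 0.79 ± 0.39 (95% interval 0.0093 to 1.58, limma adjusted p = 1, where 2.48% of all names had an unadjusted p under 0.05). Beside the amygdala values, miR-142-3p, a miRNA of blood-derived cells, was lower with enrichment by a log2 difference of −1.05 (limma adjusted p = 1). It was 1 of 4 names of the microglial and immune list, and the study's own list for this contrast held it. Of the others, miR-142-5p had a log2 difference of −0.12 and miR-150-5p one of 0.12, and miR-223-3p was not tested in the amygdala. The list's sum ran from 478 to 797 RPM without enrichment (median 593 RPM) and from 496 to 851 RPM with it (median 635 RPM). Choroid plexus names summed to 3848 to 131318 RPM without enrichment and 4298 to 40030 RPM with it. Their part in the difference of miR-199a-3p was not tested.

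**Figure D5:**
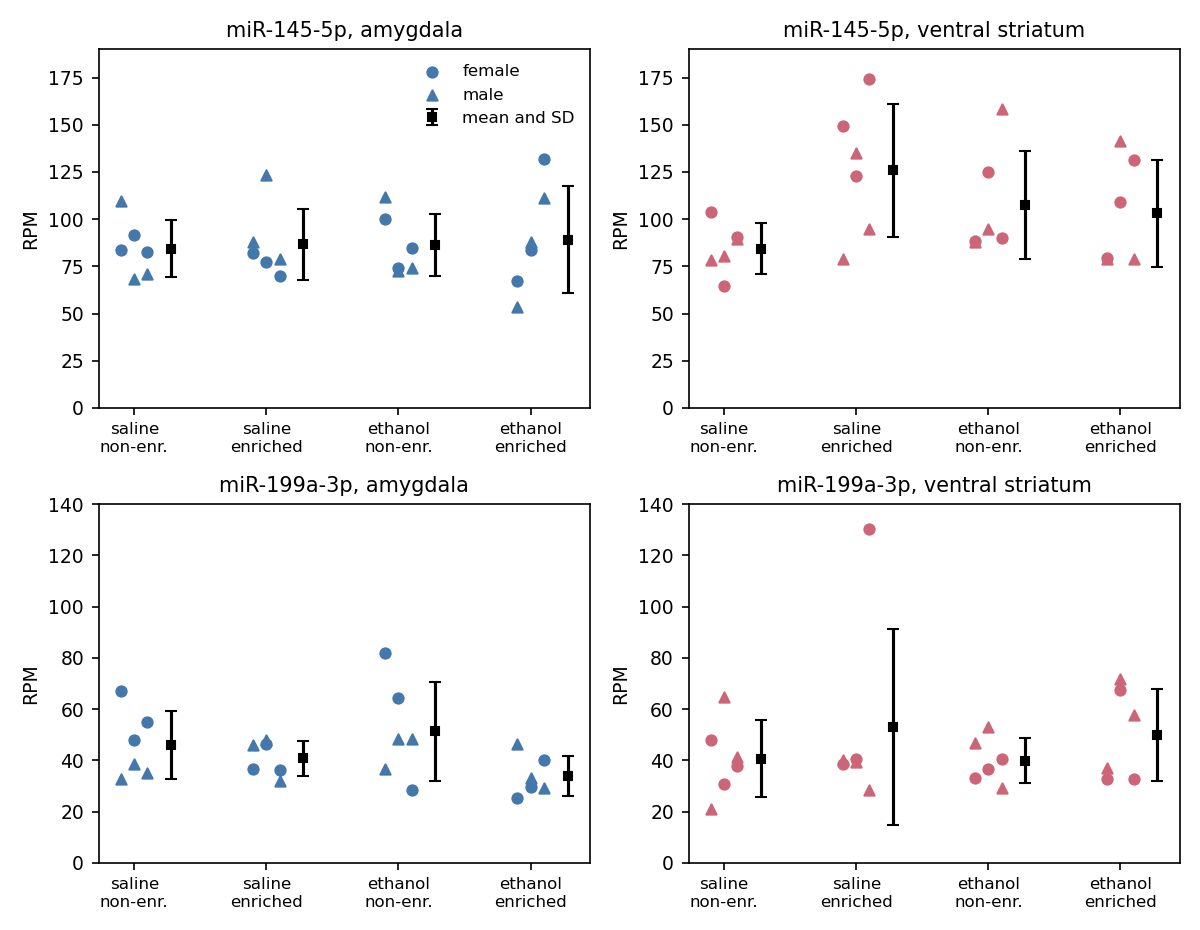
miR-145-5p (top) and miR-199a-3p (bottom) in the amygdala (left) and ventral striatum (right), in RPM from 0, by treatment; circles are female and triangles male libraries, and squares with bars are the mean and SD of 6 libraries. The groups overlap in every panel; miR-145-5p is highest in enriched saline rats of the ventral striatum (mean 126 RPM) and miR-199a-3p lowest in enriched ethanol rats of the amygdala (mean 33.9 RPM).

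The abundant members showed no call in either direction for ethanol. In enriched rats of the amygdala, miR-143-3p was 27044 to 31806 RPM with ethanol and 26430 to 35559 RPM with saline, with means of 28860 ± 1873 and 32404 ± 3187 RPM (SD, n = 6, exact permutation p = 0.0498); it was picked out after its values were seen. The log2 difference was −0.16 ± 0.10 (95% interval −0.38 to 0.056). miR-126a-3p in the same contrast was 304 to 420 RPM with ethanol and 376 to 486 RPM with saline, a log2 difference of −0.16 ± 0.10 (95% interval −0.36 to 0.038). The more abundant arm, miR-126a-5p, did not share this direction there, with a log2 difference of 0.03 ± 0.19. In non-enriched rats of the amygdala the log2 differences were −0.08 ± 0.10 for miR-143-3p, −0.12 ± 0.10 for miR-126a-3p and −0.13 ± 0.19 for miR-126a-5p. In the ventral striatum they were, in the same order, 0.07 ± 0.17, 0.12 ± 0.11 and 0.10 ± 0.29 in non-enriched rats. In enriched rats of that region they were −0.08 ± 0.17, 0.01 ± 0.11 and −0.08 ± 0.29.

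The miR-214 names gave counts too low for a fold. In the amygdala miR-214-3p had 1 read in each of 3 libraries of ethanol non-enriched rats and none in the other 21 libraries of the region. A single read is within the limit that a count of 0 allows. The unadjusted limma p of miR-214-3p was under 0.05 for the difference between regions of the ethanol effect in non-enriched rats (3.62% of all names) and of the enrichment effect in ethanol rats (2.48%), both with an adjusted p of 1 and both resting on at most 2 reads a library. No member was under that p for the difference between regions of the ethanol effect in enriched rats (2.38% of all names). mir-214 in non-enriched rats of the amygdala was 1.03 to 4.06 precursor RPM with ethanol and 0 to 2.51 precursor RPM with saline (exact permutation p = 0.0628).

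Female and male libraries did not differ in any member at an adjusted p of 0.05 in limma over 24 libraries of each sex, and no name of the 968 did (0% called; 3.93% had an unadjusted p under 0.05). One of 9 members had an unadjusted p under 0.05: miR-145-3p (n = 24 a sex, p = 0.0203, adjusted p = 1), with 26 reads in all over 14 of 24 female libraries and 9 reads over 7 of 24 male ones. For miR-145-5p, the abundant arm, the female libraries ran from 64.3 to 174 RPM (median 89.1 RPM) and the male ones from 53.5 to 158 RPM (median 87.96 RPM).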

How the data were processed

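Small RNA libraries (TruSeq, single-end, MiSeq) were made from 48 RNA pools. Per the study's methods, the authors trimmed low-quality bases, aligned with Bowtie to build Rn5, quantified precursor and mature miRBase names in Partek Flow and scaled to reads per 1000000 (RPM); the deposited signal is this value. The table's 122 rows that shared one of 56 names were summed; none was a member. The worth of 1 read was recovered from low values, but not all values were whole reads, so no count test was run. The main test was limma 3.58.1 (R 4.3.3) with trend on log2(RPM + 1), names above 0 in at least 6 libraries, groups of treatment and sex as terms and Benjamini-Hochberg adjustment over all names. Fold changes on this scale understate those of low names. On simulated data 91% of 200 changed names (log2 change 2, 910 names) were found in an amygdala ethanol contrast with 9 false calls, and 99.5% in the region contrast (968 names) with 14. Single values were tested by exact permutation of 6 against 6 libraries, which can give no p under 0.00216. For the region comparison, a permutation within treatment and sex was run beside limma.

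Members in contrasts other than region were named where the unadjusted limma p was under 0.05 or the study's lists held them. The members and lists were chosen with earlier results of these data known. Replicate numbers were not taken as pairs: deviations of same-numbered libraries had a median correlation of −0.06 (amygdala) and 0.09 (ventral striatum), with 9 and 11 of 24 pairs over 0.1. Marker lists held red blood cell, choroid plexus, microglial and immune, oligodendrocyte, neuronal and skeletal muscle names. Nothing in the labels says that pools of a group came from separate litters, so p-values measure the spread between pools. miRNA arrays of the same pools were not used here.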

Additional observations from a re-analysis of the deposited data

Results flagged for a closer look

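In 7 of 72 groups of 6 libraries a member's highest or lowest library lay farther from the rest than Dixon's 95% limit for its gap over the range. For normal values a rate of 1 in 20 would give about 3.6 of 72. Groups of a few reads or all at 0 are not normal, so the 7 cannot be judged against that number. Of these, 3 were 1 library, saline socially-enriched female replicate 3 of the ventral striatum: 130 RPM of miR-199a-3p (others 28.5 to 40.6 RPM), 32.4 RPM of miR-199a-5p (1.93 to 4.38 RPM) and 6.85 precursor RPM of mir-214 (0.781 to 2.19 RPM). In saline socially-enriched rats of the amygdala, miR-143-3p was 26430 RPM in male replicate 3 (others 32381 to 35559 RPM) and miR-145-5p was 123 RPM in male replicate 2 (69.8 to 88.02 RPM). The remaining ones were single reads in groups otherwise at 0: miR-145-3p at 1.22 RPM in ethanol non-enriched female replicate 1 of the amygdala, and miR-214-3p at 1.03 RPM in ethanol socially-enriched female replicate 3 of the ventral striatum.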

How the results depend on the processing

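In the region comparison 1 of 9 members, miR-145-5p, was called in place of 0 when names needed a mean of 10 RPM, under upper-quartile rescaling, with an unmoderated model on unlogged RPM, and with consecutive library numbers as a random block; leaving out 1 library at a time gave 0 to 1. The cause was not tested. miR-199a-5p was called without amygdala ethanol non-enriched female replicate 3 (adjusted p = 0.0367 in limma). Differences near 0 changed sign: miR-143-3p to 0.069 under upper-quartile rescaling and to 300.4 RPM in the unlogged model, with −0.056 to 0.018 over the fits leaving out a library; miR-199a-3p to −0.026 under median-ratio rescaling, with −0.028 to 0.095 over those fits; and miR-145-3p to −0.075 with a term for the 8 libraries with the fewest reads. The treatment, interaction and sex counts stayed at 0 in every alternative run. The replicate block, whose numbers do not pair these libraries, left all counts at 0. Counts of pairs called by Pearson's r (1 in the amygdala, 3 in the ventral striatum) stayed within 1.5 times, and mean levels within 1 SD, under all alternatives run, including that without saline socially-enriched female replicate 3, which was added after the data were seen, as was the split at the gap in miR-126a-5p. Depth limits miR-145-3p, miR-214-3p and mir-214 most.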
